A study of Sus scrofa with 16 samples.

Results

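Molecular chaperones of the cytosol were followed in the liver of pigs fed one of 3 dietary fats. The 10 genes described are HSPA8, HSP90AB1, HSPA4, DNAJA1, BAG3, ZFAND2A, HSPH1, HSP90AA1, DNAJB1 and HSPB1. They were taken by their pig gene symbol from the 25880 genes listed in the count data, of which 14857 have a symbol. All 10 were found once, and all 10 passed the filter on low counts in every comparison. The study asked how the liver transcriptome depends on the fat in the feed. Group R received rapeseed oil (5 pigs, 3 gilts and 2 barrows), group B beef tallow (5 pigs, 2 gilts and 3 barrows) and group C coconut oil (6 pigs, 3 gilts and 3 barrows). All 16 animals were crossbred fatteners, from sows of Polish Landrace x Polish Large White and boars of Duroc x Pietrain, fattened between 60 and 118 kg in individual pens on feeds of similar energy and protein. No group without added fat was analysed here, so group R served as the reference in its comparisons, and both comparisons with group R share its 5 pigs.

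Chaperones of the HSP70 family bind exposed hydrophobic stretches of unfolded proteins in cycles of ATP hydrolysis. J-domain proteins such as DNAJA1 and DNAJB1 start the hydrolysis, and nucleotide exchange factors such as the BAG proteins and the HSP110 family end the cycle, after which clients can pass to HSP90. Some of these genes are transcribed steadily in most cells (here called constitutive, namely HSPA8, HSP90AB1, HSPA4 and DNAJA1), while others are well known targets of heat shock factor 1 that rise under proteotoxic stress (here called inducible, namely BAG3, ZFAND2A, HSPH1, HSP90AA1, DNAJB1 and HSPB1). The division is one of degree, since several constitutive genes also respond to heat shock.

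The libraries captured 3′ ends of transcripts, 1 library per pig, with between 705669 and 1767671 reads counted on genes (median 1018321.5). Levels are given as CPM, the read count of a gene scaled to the size of its library, with TMM factors over the 16 pigs. Each transcript contributes its 3′ end, so CPM was not divided by gene length. Differences are log2 fold changes from edgeR's quasi-likelihood test in the pigs of the 2 diets compared, second diet minus first, and a gene was called at a Benjamini-Hochberg adjusted p below 0.05 over all genes tested. Hepatocyte markers summed to between 64550 and 188300 CPM per pig in this tissue labelled liver. Pig B3 stood apart from the others on the first principal component (58.97, against -19.65 to 17.61 in the other 15 pigs), and values without it are given where it moves a result. Reads with several alignments, which were assigned to no gene, made up 21.9% to 32.5% of the tallied reads with rapeseed oil (median 26.5%), 19.3% to 33.2% with beef tallow (median 22.2%) and 15.4% to 38.1% with coconut oil (median 19.8%). Several of these chaperones have near-identical copies or pseudogenes in mammals, and the part of these reads in the results was not tested. In a sample of whole tissue, fewer cells of a type and less RNA per cell cannot be told apart.

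In both comparisons with rapeseed oil, edgeR called HSPA8 and BAG3 higher. ZFAND2A also had a positive log2 fold change in both, and edgeR called it with beef tallow only. Comparing rapeseed oil with beef tallow, 3 of the 10 genes were called, all higher in group B, against 1.11% of the 6318 genes tested. Comparing rapeseed oil with coconut oil, 2 of the 10 were called, both higher in group C, against 0.138% of 6528 genes. Between group B and group C, edgeR called 0 of the 10 and DESeq2 0 of the 9 to which it gave an adjusted p, against 0.0587% of 6812 genes called by edgeR. There 1 of the 10 was higher and 1 lower at an unadjusted p below 0.05, against 5.24% and 6.21% of all genes. The genes were chosen with earlier results of these data known, so these counts describe them and are no independent test.

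HSPA8 encodes HSC70, the major constitutive HSP70 of the cytosol, and lies on chromosome 9 from 49982278 to 49986760 (Sscrofa11.1, RefSeq annotation, as for all positions here). The 5 pigs on rapeseed oil had 156, 190.8, 187.5, 147.3 and 114.1 CPM of it. With beef tallow it was 404.2, 407.4, 290.8, 482.4 and 483.4 CPM, and with coconut oil it was 295.3, 418.9, 279.2, 447.8, 360.1 and 302.9 CPM. Every pig on beef tallow or coconut oil lay above every pig on rapeseed oil, and groups B and C overlapped. The mean with rapeseed oil was 159.1 ± 31.57 CPM (SD, n = 5), with beef tallow 413.6 ± 78.75 (n = 5) and with coconut oil 350.7 ± 70.2 (n = 6). The log2 fold change was 1.38 for group B (SE 0.19, edgeR adjusted p = 0.00517) and 1.14 for group C (SE 0.17, edgeR adjusted p = 0.0115). Both calls held in every fit with 1 pig left out, 10 of 10 for group B and 11 of 11 for group C.

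The difference between groups B and C in HSPA8 was -0.23 on the log2 scale (SE 0.18, edgeR adjusted p = 0.634), with a 95% interval from -0.61 to 0.14. Since no pig of groups B or C overlapped group R, separation within each sex follows and is no added check on sex. Gilts of group R reached at most 190.8 CPM, and the lowest gilt was at 290.8 CPM in group B and at 279.2 CPM in group C. Barrows of group R reached at most 187.5 CPM, and the lowest barrow was at 407.4 CPM in group B and at 302.9 CPM in group C.

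BAG3, on chromosome 14 from 129510240 to 129533998, encodes a nucleotide exchange factor of HSP70 that directs clients to selective autophagy. Its level was 155.2, 171.3, 131.9, 231.8 and 117 CPM in group R, and 646.5, 587.8, 232.4, 942.4 and 388.2 CPM in group B. In group C it was 580.1, 359.3, 390.2, 405.4, 413.2 and 585.5 CPM. Group C lay clear of group R, while groups R and B were parted only by the gap between pig R4 (231.8 CPM) and pig B3 (232.4 CPM). Its mean was 161.4 ± 44.54 CPM with rapeseed oil (SD, n = 5), and rose to 559.4 ± 269.9 with beef tallow (n = 5) and 455.6 ± 100.2 with coconut oil (n = 6). Pigs of group B were the most unequal, with a highest level of 942.4 CPM in pig B4.

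The log2 fold change of BAG3 was 1.5 for group C (SE 0.19, edgeR adjusted p = 0.00266), the smallest p of all 6528 genes in that comparison, and 1.79 for group B (SE 0.31, edgeR adjusted p = 0.0148). The call for group C held in all 11 fits with 1 pig left out. The call for group B held in 7 of 10 such fits, and was lost without pig R1 (log2 fold change 1.78, adjusted p = 0.0502), R3 (1.73, 0.0714) or R5 (1.69, 0.0636). Without the outlying pig B3 the log2 fold change was 1.99 (SE 0.24, edgeR adjusted p = 0.000468). Groups B and C differed by -0.29 (SE 0.27, edgeR adjusted p = 0.705), with a 95% interval from -0.86 to 0.28.

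ZFAND2A, on chromosome 3 from 756427 to 776028, encodes AIRAP, a zinc finger protein that binds the proteasome and is induced by arsenite and heat. Its level was low, with 8 to 28 reads per pig on rapeseed oil, 23 to 101 on beef tallow and 18 to 88 on coconut oil. As CPM it was 19.86, 17.44, 15.51, 28.85 and 7.867 in group R, and 74.88, 24.4, 30.19, 107.3 and 79.64 in group B. Group C gave 50.16, 28.05, 27.76, 59.3, 53.79 and 27.59 CPM. The ranges overlapped with that of group R in both comparisons, since pig R4 (28.85 CPM) was above pig B2 and above pigs C2, C3 and C6. The log2 fold change was 1.80 for group B (SE 0.40, edgeR adjusted p = 0.0426) and 1.19 for group C (SE 0.30, edgeR adjusted p = 0.104). For group C, DESeq2 and edgeR without the filter on low counts called it. The call for group B held in 3 of 10 fits with 1 pig left out, namely without R4, B2 or B3, and was lost without any of the other 7 (adjusted p between 0.0795 and 0.116). It was also lost with sex as a covariate (log2 fold change 1.83, edgeR adjusted p = 0.0578).

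**Figure D1:**
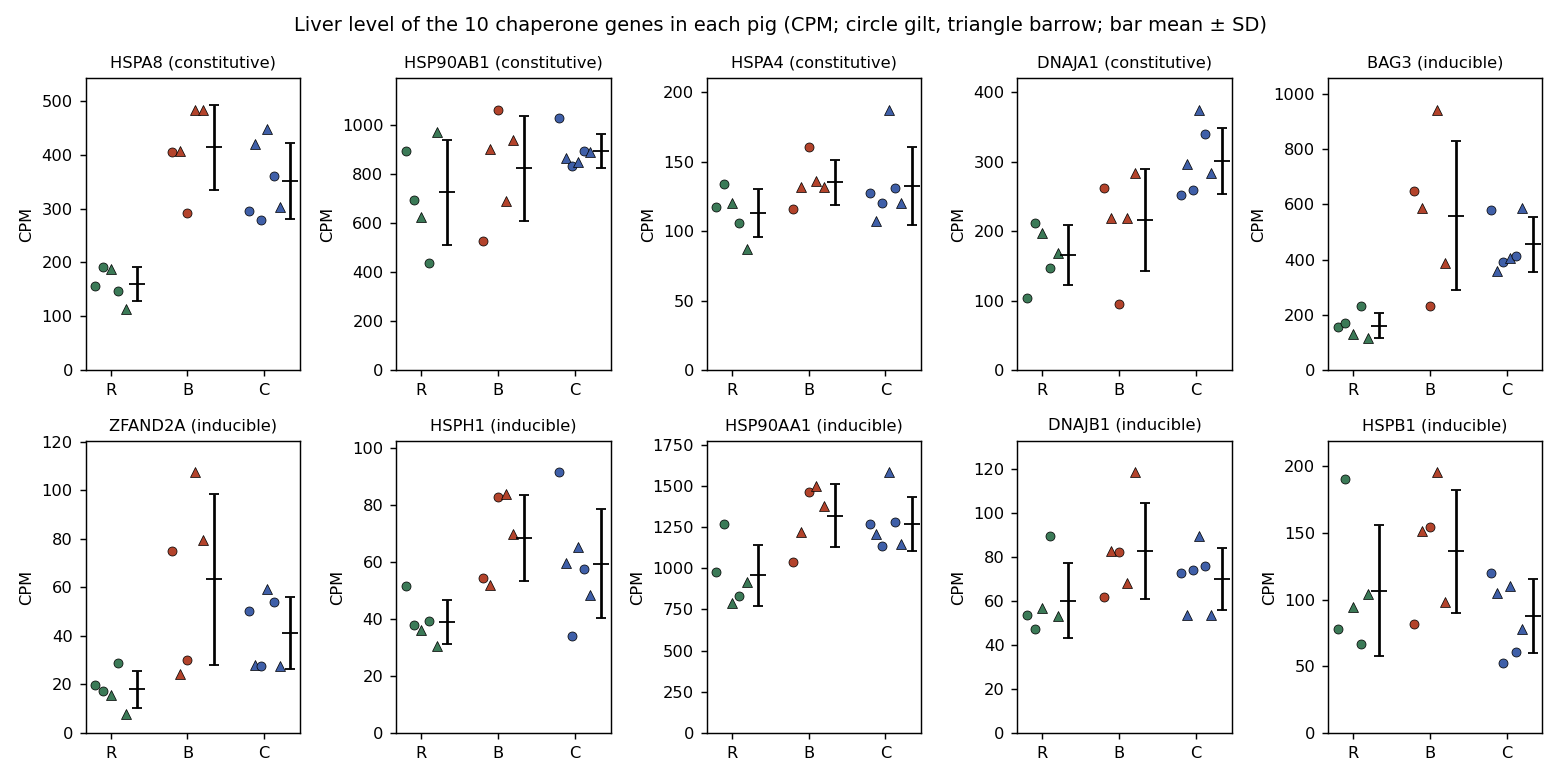
Level of each of the 10 chaperone genes in every pig, in CPM on a linear axis from 0, with groups R (rapeseed oil), B (beef tallow) and C (coconut oil) along the horizontal axis. Circles are gilts, triangles are barrows and the bars give the mean ± SD of each group. For HSPA8, every pig of groups B and C lies above the highest pig of group R (190.8 CPM), and for BAG3 pig B3 lies beside the highest pig of group R.

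The genes of the HSP110 family, which exchange nucleotide on HSP70, had smaller log2 fold changes. HSPH1, the inducible HSP105 (chromosome 11, 7733874 to 7759528), was at 51.49, 37.96, 36.2, 39.15 and 30.49 CPM in group R and at 54.25, 51.99, 82.71, 83.94 and 69.68 CPM in group B. In group C it was at 91.43, 59.6, 33.93, 65.35, 57.46 and 48.42 CPM. Groups R and B did not overlap, by a margin of 51.49 against 51.99 CPM, and pig C3 lay within the range of group R. The log2 fold change was 0.80 for group B (SE 0.21, edgeR adjusted p = 0.0783) and 0.60 for group C (SE 0.22, edgeR adjusted p = 0.269), so neither passed the threshold, although DESeq2 called the first at an adjusted p of 0.0328.

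Its constitutive relative HSPA4 (chromosome 2, 135345724 to 135391112) was at 113.2 ± 17.53 CPM with rapeseed oil (SD, n = 5), 135.2 ± 16.17 with beef tallow (n = 5) and 132.6 ± 28.14 with coconut oil (n = 6). The 3 ranges overlapped, from 87.52 to 134.4, from 116.1 to 160.8 and from 107.8 to 187.6 CPM. The log2 fold changes were 0.26 for group B (95% interval -0.10 to 0.62) and 0.22 for group C (95% interval -0.13 to 0.57), and neither passed the test.

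Both J-domain partners of HSP70 were measured. DNAJA1, the constitutive one (chromosome 10, 33432529 to 33445556), was at 103.7, 212.4, 197.8, 147.3 and 168.2 CPM in group R and at 262.9, 219.6, 95.83, 218.9 and 284.3 CPM in group B. In group C it was at 252.4, 297.1, 259.1, 375.2, 340.5 and 284.3 CPM, above every pig of group R. The log2 fold change for group C was 0.86 (SE 0.18) with an edgeR adjusted p of 0.0644, just outside the threshold. DESeq2 (adjusted p = 0.00131) and edgeR without the filter on low counts (adjusted p = 0.00618) called it. For group B the log2 fold change was 0.38 (SE 0.26, edgeR adjusted p = 0.523), and 0.58 without pig B3 (edgeR adjusted p = 0.141), the lowest of all 16 pigs in this gene. Without that pig, all of group B lay above all of group R, a separation gained by leaving out the lowest value.

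DNAJB1 (chromosome 2, 64761672 to 64764482), also known as HSP40, is strongly induced by heat. It was at 60.1 ± 16.87 CPM with rapeseed oil (SD, n = 5), 82.61 ± 21.91 with beef tallow (n = 5) and 69.86 ± 14.05 with coconut oil (n = 6), with overlapping ranges. Its log2 fold changes were 0.46 for group B (SE 0.23, edgeR adjusted p = 0.355) and 0.21 for group C (95% interval -0.20 to 0.61). DNAJB1 and DNAJA1 thus took different orders across the diets, with the highest mean in group B for DNAJB1 and in group C for DNAJA1.

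Both cytosolic HSP90 genes had the highest levels of the 10. HSP90AA1, the inducible form (on an unplaced sequence of the assembly), was at 955.3 ± 187.7 CPM with rapeseed oil (SD, n = 5), 1319 ± 191.8 with beef tallow (n = 5) and 1269 ± 164.2 with coconut oil (n = 6). Pig R2 (1265 CPM) lay within the ranges of group B (1035 to 1501) and group C (1134 to 1581), while the other 4 pigs of group R were below all pigs of both groups. The log2 fold changes were 0.47 (SE 0.18, edgeR adjusted p = 0.214) and 0.40 (SE 0.15, edgeR adjusted p = 0.272).

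HSP90AB1, the constitutive form (chromosome 7, 39237299 to 39250479), was at 724.4 ± 213.8 CPM with rapeseed oil, 822.7 ± 213 with beef tallow and 892.1 ± 70.03 with coconut oil. Group C was the most uniform, from 829.8 to 1027 CPM, inside the range of group B (526.5 to 1061 CPM) and overlapping group R (436.8 to 970.6 CPM). The log2 fold changes were 0.18 for group B (95% interval -0.31 to 0.68) and 0.29 for group C (95% interval -0.08 to 0.67), which did not pass the test.

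HSPB1 (chromosome 3, 10038074 to 10039441), or HSP27, is an ATP-independent holdase that keeps unfolded proteins soluble. Of the 10 genes it had the only negative log2 fold change from group R, for coconut oil. The pigs had 77.98, 190.8, 94.37, 66.96 and 104.2 CPM on rapeseed oil, 81.76, 151.7, 154.3, 195.5 and 98.44 CPM on beef tallow, and 119.7, 105.2, 52.44, 110.1, 60.52 and 78.26 CPM on coconut oil. The log2 fold change was 0.35 for group B (SE 0.29, edgeR adjusted p = 0.603) and -0.29 for group C (SE 0.26, edgeR adjusted p = 0.710). The second value rested on pig R2, and was 0.036 without it.

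**Figure D2:**
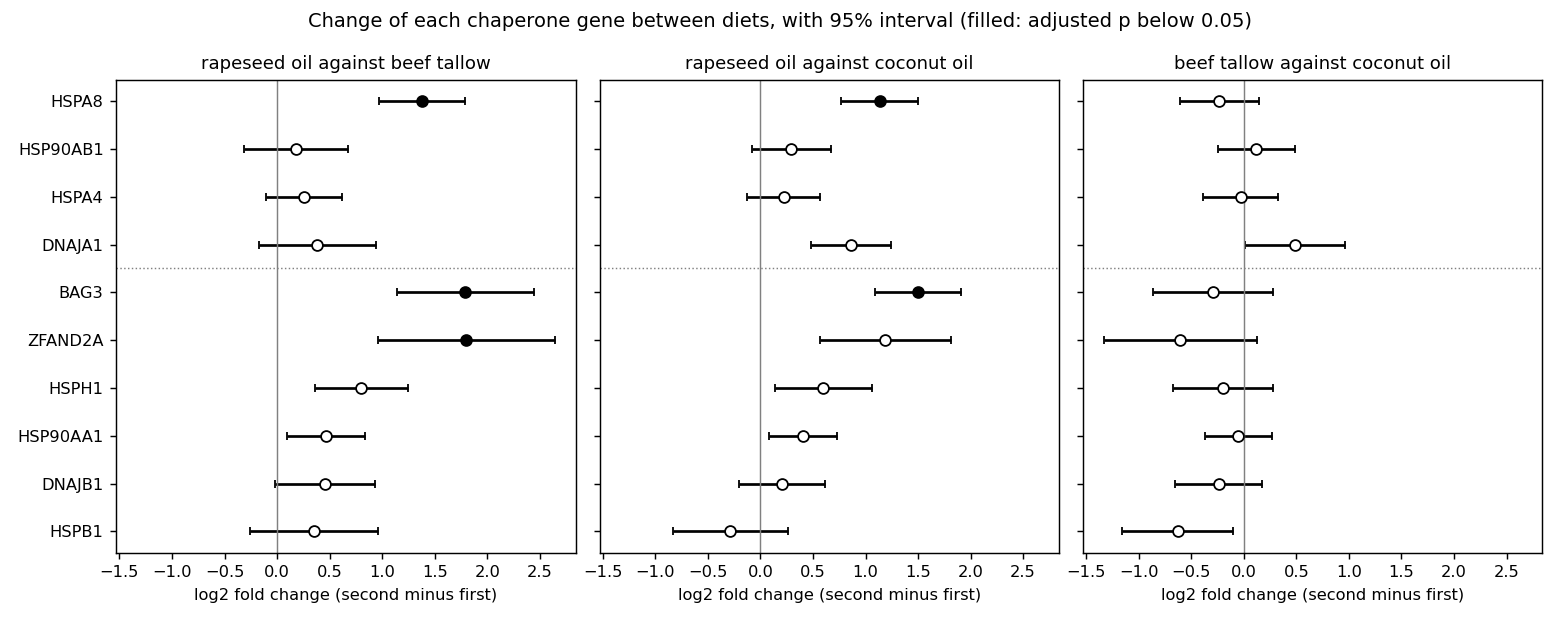
Log2 fold change of each gene in the 3 comparisons of diets, with its 95% interval, constitutive genes above the dotted line and inducible genes below. Filled points passed an adjusted p of 0.05, which were HSPA8, BAG3 and ZFAND2A with beef tallow and HSPA8 and BAG3 with coconut oil, and no point of the third panel is filled.

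Seen over the list, all 10 log2 fold changes were positive for group B, with a median of 0.46 against 0.01 over all genes tested. For group C, 9 of 10 were positive, with a median of 0.50 against -0.0011. At an unadjusted p below 0.05, 5 of the 10 were higher in group B (8.33% of all genes tested) and 6 of the 10 in group C (6.45% of all genes), with none lower. No overlap with group R, all pigs of the second diet being higher, was seen in 3 of the 10 genes for group B (HSPA8, BAG3 and HSPH1), against 2.58% of all genes tested, and in 3 of the 10 for group C (HSPA8, BAG3 and DNAJA1), against 0.643%. None of the 10 had its highest pig in group R, and 8 of the 10 had their lowest pig there, the others being DNAJA1 (pig B3) and HSPB1 (pig C3). A single pig, R5, was the lowest for HSPA8, HSPA4, BAG3, ZFAND2A and HSPH1. The share of all genes with such extremes was not computed, so these counts describe the list only.

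The division into constitutive and inducible genes matched the order of the changes only in part. For group B the median log2 fold change was 0.32 over the 4 constitutive genes and 0.63 over the 6 inducible genes, and for group C 0.58 and 0.50. HSPA8, listed as constitutive, changed more than 4 of the inducible genes in both comparisons, namely HSPH1, HSP90AA1, DNAJB1 and HSPB1. The size of the change thus spread within each class, from 0.18 to 1.38 among constitutive and from 0.35 to 1.80 among inducible genes for group B. No test was made between the classes.

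Pigs differed in how far the 10 genes lay from the mean of group R. Averaged over the 6 inducible genes, the log2 distance was 0.72 to 1.38 in pigs on beef tallow and 0.26 to 0.96 in those on coconut oil, against -0.32 to 0.21 on rapeseed oil. Over the 4 constitutive genes it was 0.32 to 0.78 in group B and 0.47 to 0.94 in group C, against -0.24 to 0.24. Pig B4 had the highest level of all pigs in 3 genes (BAG3, ZFAND2A and HSPB1), and pig C4 in 3 others (DNAJA1, HSPA4 and HSP90AA1). Summed over the 10 genes, the level was 2122 to 2962 CPM with rapeseed oil, 3264 to 4424 CPM with beef tallow and 3200 to 4170 CPM with coconut oil, and HSP90AA1 and HSP90AB1 had the highest means among them.

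**Figure D3:**
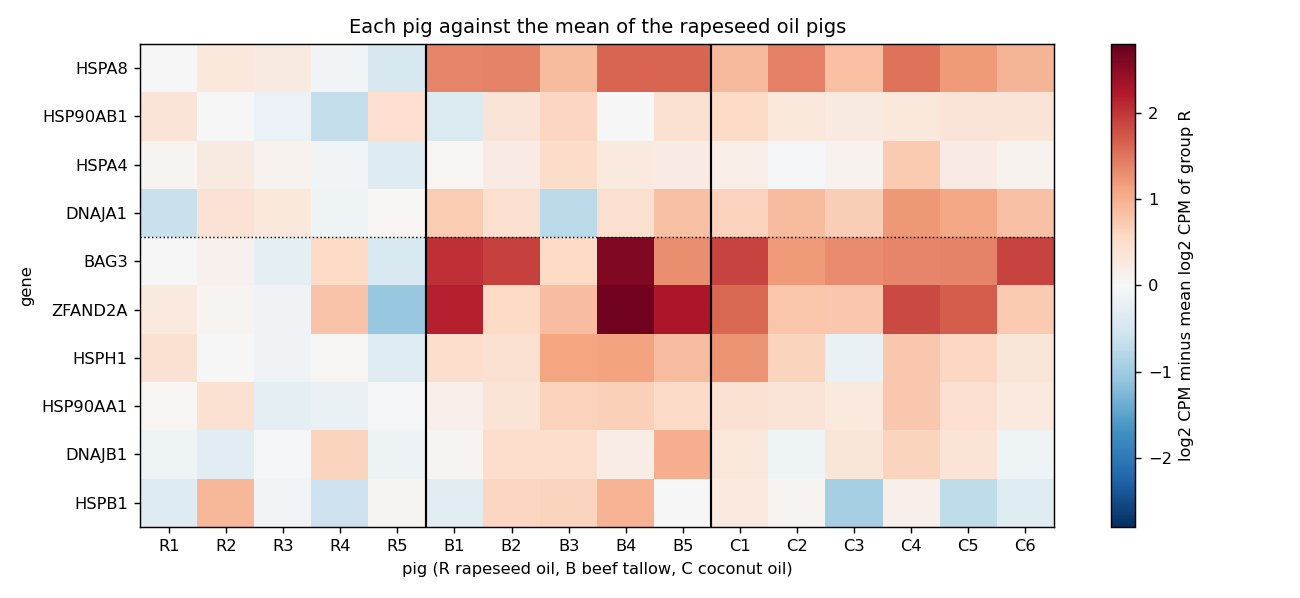
Log2 CPM of each gene (rows) in each pig (columns) minus the mean log2 CPM of group R, with red above and blue below that mean, constitutive genes above the dotted line and diets parted by solid lines. HSPA8 and BAG3 are red in every pig of groups B and C, DNAJA1 is blue in pig B3, and HSPB1 is blue in pigs C3, C5 and C6.

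Between beef tallow and coconut oil edgeR called no gene of the 10. The log2 fold change was lower in group C for 8 of the 10, with a median of -0.22 over the list and -0.0045 over all genes tested. All 6 inducible genes had a negative value (median -0.27), while the constitutive genes had 2 of either sign (median 0.05). No gene of the 10 had all pigs of group C below all pigs of group B, against 0.881% of all genes tested. HSPB1 (-0.63, SE 0.25, unadjusted p = 0.0227, edgeR adjusted p = 0.359) and DNAJA1 (0.49, SE 0.23, unadjusted p = 0.0458, edgeR adjusted p = 0.425) were below an unadjusted p of 0.05. Without pig B3 none was called either. At that level, where 387 of the 6783 genes tested were lower and 315 higher, 3 of the 10 were lower and 0 higher. These were ZFAND2A (-0.79, SE 0.32, edgeR adjusted p = 0.407), BAG3 (-0.49, SE 0.22, edgeR adjusted p = 0.455) and HSPB1 (-0.58, SE 0.26, edgeR adjusted p = 0.460), while DNAJA1 was at 0.29 (SE 0.16, edgeR adjusted p = 0.552). With all pigs the difference for ZFAND2A was -0.61 with a 95% interval from -1.33 to 0.12.

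Ratios between related genes within a pig do not depend on the scaling of the library. The log2 ratio of HSPH1 to HSPA4 was -1.54 ± 0.25 with rapeseed oil (SD, n = 5), -1.0 ± 0.24 with beef tallow (n = 5) and -1.20 ± 0.48 with coconut oil (n = 6), with 1 pig of group R (R1, -1.19) inside the range of group B. The log2 ratio of DNAJB1 to DNAJA1 was -1.46 ± 0.61, -1.33 ± 0.70 and -2.12 ± 0.29 in the same order, and the groups overlapped. For HSP90AA1 to HSP90AB1 it was 0.43 ± 0.45, 0.71 ± 0.32 and 0.50 ± 0.21, again with overlap. The ratio of BAG3 to HSPA8, the exchange factor to its chaperone, was 0.0044 ± 0.42, 0.31 ± 0.59 and 0.37 ± 0.52. These ratios are descriptions and were not tested.

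**Figure D4:**
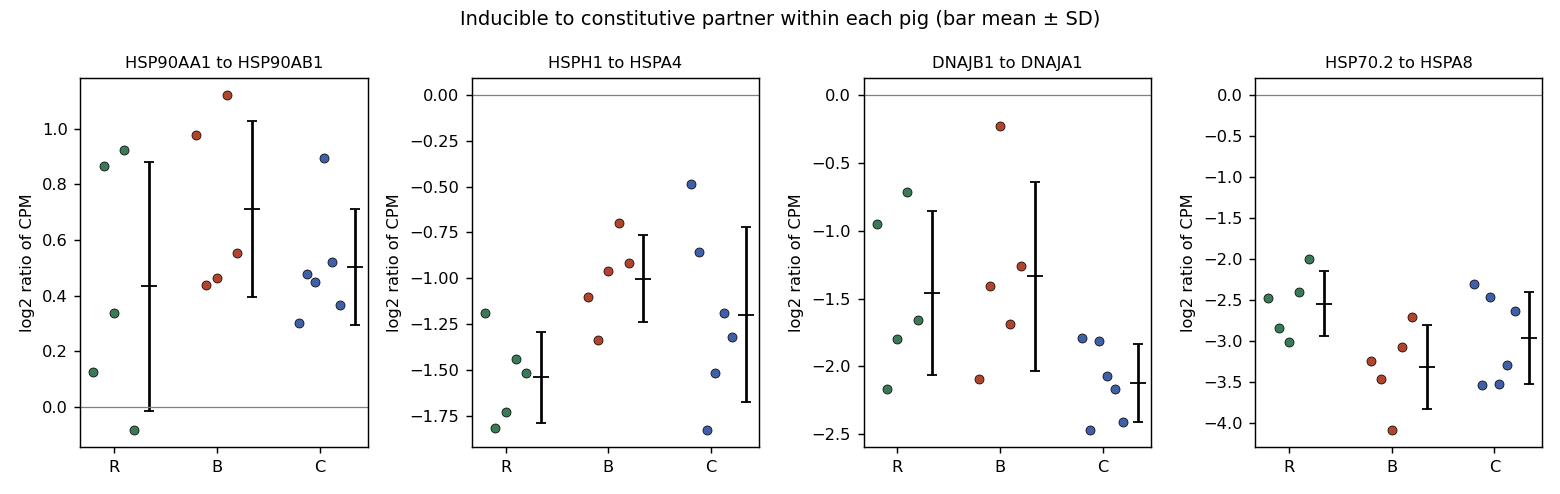
Log2 ratio of the CPM of an inducible gene to that of its constitutive partner within each pig, by diet, with the mean ± SD of each group as bars. The ratio of HSPH1 to HSPA4 is lowest on average in group R (-1.54), that of DNAJB1 to DNAJA1 is lowest on average in group C (-2.12), and HSP70.2 lies below HSPA8 in every pig.

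The stress-inducible HSP70 itself appears in the pig annotation as HSP70.2, the entry to which both HSPA1A and HSPA1B matched as synonyms. Since these genes are near-identical copies, reads from them could align to several places, and the level is uncertain. HSP70.2 was at 23.27 to 28.52 CPM with rapeseed oil, 17.07 to 74.11 CPM with beef tallow and 35.93 to 59.87 CPM with coconut oil. The pigs of group C thus all lay above group R, as did those of group B apart from pig B3 (17.07 CPM). The log2 fold change was 0.74 for both group B (SE 0.31, edgeR adjusted p = 0.261) and group C (SE 0.19, edgeR adjusted p = 0.104), and 0.96 for group B without pig B3 (SE 0.22, edgeR adjusted p = 0.0338). HSP70.2 was well below HSPA8 in every pig, with a log2 ratio of -2.55 ± 0.40, -3.31 ± 0.51 and -2.96 ± 0.56 in groups R, B and C.

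HSF1, the heat shock factor that drives the inducible genes, was listed at 0 reads in all 16 pigs. So were the chaperone partners STUB1 and ZFAND2B and the immediate early genes JUNB and FOSB, and SERPINA1, an abundant hepatocyte gene, had no more than 1.69 CPM in any pig. A listing at 0 in these data therefore gives no level for HSF1. HSF2, a related factor, was at 23.23 ± 4.805 CPM with rapeseed oil, 23.38 ± 9.907 with beef tallow and 24.64 ± 5.736 with coconut oil, and its log2 fold changes from group R were 0.0011 (SE 0.31) and 0.09 (SE 0.22).

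The other chaperones and co-chaperones of the cytosol were read from lists of related genes, of which 64 were found besides the 10. Of these, 45 could be tested between groups R and B, where edgeR called ZFAND5. At an unadjusted p below 0.05, 8 were higher and 0 lower, against 8.33% and 6.66% of all genes, and the median log2 fold change was 0.17. DESeq2 called ZFAND5 and SYNPO2, a partner of BAG3 in autophagy (1.29, SE 0.37, DESeq2 adjusted p = 0.0242), and edgeR without pig B3 called ZFAND5 and HSP70.2. Between groups R and C, 46 were tested and edgeR called 0, with 11 higher and 0 lower at an unadjusted p below 0.05 (6.45% and 6.53% of all genes) and a median of 0.14. DESeq2 called 2 there, ZFAND5 (DESeq2 adjusted p = 0.0148) and HSP70.2 (DESeq2 adjusted p = 0.0394). Without the filter on low counts, edgeR called ZFAND5 there (adjusted p = 0.0170). Between groups B and C, 48 were tested and edgeR and DESeq2 each called 0, with 1 higher and 3 lower at an unadjusted p below 0.05 (5.24% and 6.21% of all genes) and a median of 0.03. These lists were written with earlier results known, and they are given beside the 10 genes for their levels of change.

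ZFAND5, a zinc finger protein related to ZFAND2A that activates the proteasome, had a log2 fold change of 1.30 for group B (SE 0.28, edgeR adjusted p = 0.0394) and 0.83 for group C (SE 0.21, edgeR adjusted p = 0.104). Among the co-chaperones of HSP90, the smallest p belonged to FKBP4, an immunophilin of steroid receptor complexes, at 0.87 for group C (SE 0.28, edgeR adjusted p = 0.198). In the chaperonin list it belonged to CCT8, a subunit of the ring that folds actin and tubulin, at 0.60 for group C (SE 0.18, edgeR adjusted p = 0.182). DNAJC7, a J-domain protein that binds HSP70 and HSP90, was at -0.82 between groups B and C (SE 0.21, edgeR adjusted p = 0.208). None of these 3 passed the threshold. BAG1, another exchange factor of HSP70, was at -0.40 for group B (SE 0.22, edgeR adjusted p = 0.405). HSPB8, the small heat shock protein that binds BAG3, was at -0.24 for group B (SE 0.52, edgeR adjusted p = 0.876), and at 0.09 without pig B3 (SE 0.26, edgeR adjusted p = 0.901). Pig B3 had 2.63 CPM of HSPB8, against 85.9 to 132 CPM in the other pigs of group B.

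Relatives in the organelles took different values by compartment. In the endoplasmic reticulum, the HSP70 protein BiP (HSPA5) was called for group B at 1.54 (SE 0.19, edgeR adjusted p = 0.00104). So were HYOU1 at 1.23 (SE 0.23, edgeR adjusted p = 0.0222) and HSPA13 at 1.22 (SE 0.27, edgeR adjusted p = 0.0426). For group C these 3 had log2 fold changes of 0.76, 0.25 and 0.22, and edgeR called none, while DESeq2 called HSPA5 (0.76, DESeq2 adjusted p = 0.0148), as did edgeR without the filter on low counts (adjusted p = 0.0263). Between groups B and C, DESeq2 called all 3 lower in group C (-0.78, -0.98 and -0.98), and edgeR called none. HSP90B1, the HSP90 of that compartment, was at 0.43 for group B (SE 0.21, edgeR adjusted p = 0.351) and 0.09 for group C. In mitochondria, HSPA9 was at 0.49 for group B (edgeR adjusted p = 0.135) and 0.44 for group C (edgeR adjusted p = 0.179), with all pigs of both groups above group R. DESeq2 called it for both (adjusted p = 0.0276 and 0.0166). The chaperonin HSPD1 was at 0.25 and 0.22. For groups B and C, HSPA8 was at 1.38 and 1.14 and HSPA5 at 1.54 and 0.76, and the difference between these patterns was not tested.

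**Figure D5:**
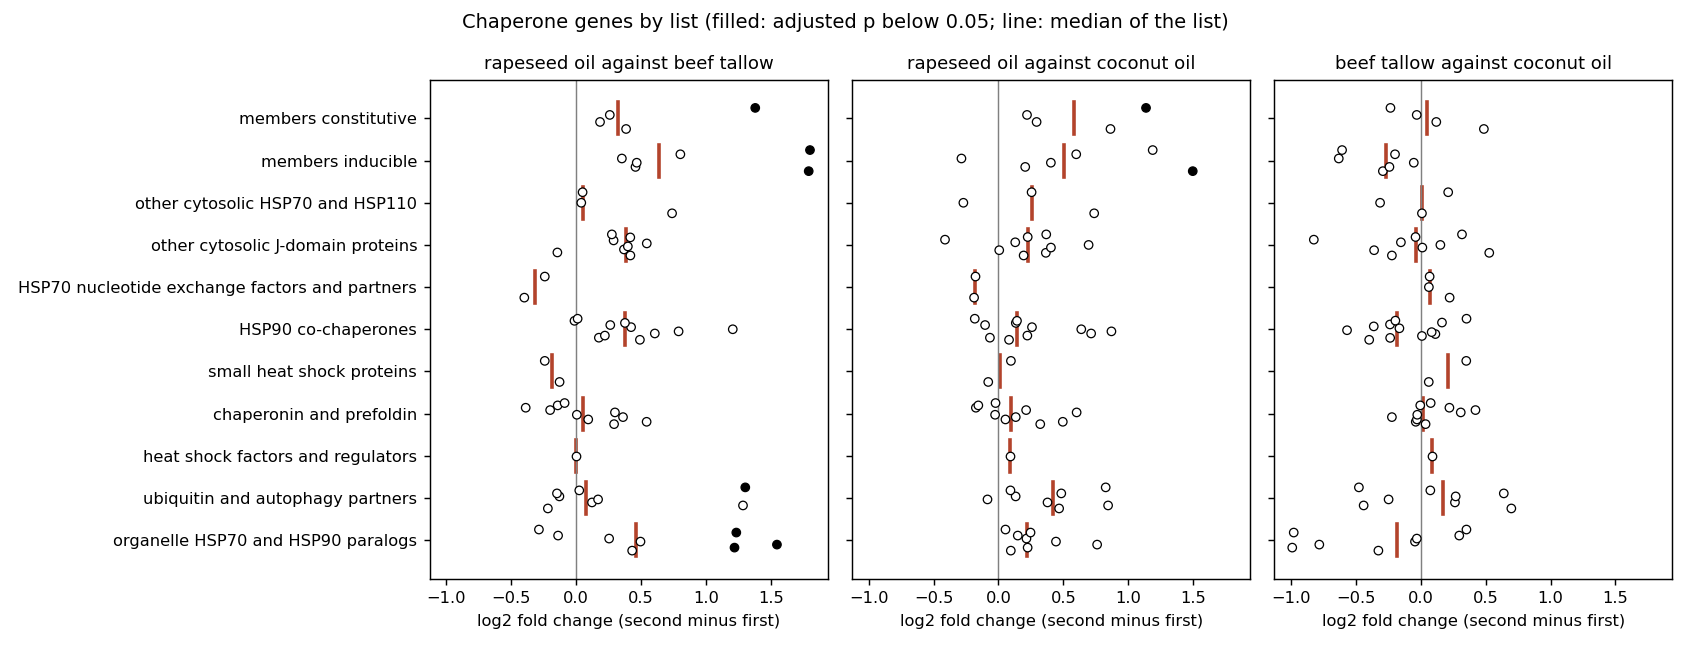
Log2 fold change of every tested gene of each list in the 3 comparisons, with 1 point per gene, filled where the adjusted p was below 0.05, and a line at the median of the list. The 10 genes occupy the upper 2 rows, where 3 points are filled for beef tallow and 2 for coconut oil.

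The genes whose levels over the 16 pigs were closest to those of BAG3 were sought among 6891 genes, by the root mean square difference of centred log2 CPM. This measure was 0.386 for ZBTB16, a zinc finger transcription factor, 0.406 for ABHD5, the co-activator of the lipase ATGL on lipid droplets, and 0.439 for ZFAND5, with 2 genes without a symbol next. HSPA8 came 6th (0.49) and ZFAND2A 23rd (0.567), while BAG3 itself had a root mean square of 0.867 around its mean. ZBTB16 had a log2 fold change of 1.49 for group B (SE 0.28, edgeR adjusted p = 0.0263) and 1.03 for group C (SE 0.25, edgeR adjusted p = 0.0945). ABHD5 had 1.36 (SE 0.25, edgeR adjusted p = 0.0216) and 0.73 (SE 0.20, edgeR adjusted p = 0.133).

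For HSPA8, the closest genes with a symbol were RIPK2 (0.351), an inflammatory kinase with at most 15 reads in any pig, NOLC1 (0.356), a nucleolar protein, and NPAT (0.393), an activator of histone genes, together with 2 genes without a symbol. The closest of the 10 genes were HSP90AA1 (0.467, place 58), HSPH1 (0.468, place 62) and BAG3 (0.49, place 100). Likeness of this kind is a description over 16 pigs that share diets and libraries.

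Sex was unequal between the diets. Gilts and barrows were also compared regardless of diet, so differences between the diets can enter this comparison. Neither edgeR nor DESeq2 called any of the 10 genes, against 0.0786% of 6365 genes called by edgeR. At an unadjusted p below 0.05 there were 0 of 10, against 4.02% of all genes. With a share that small, 10 genes are too few to differ from it by having none. The smallest p was that of HSPA8, which was 0.41 higher in barrows on the log2 scale (SE 0.26, edgeR adjusted p = 0.998), with a 95% interval from -0.14 to 0.95. The median log2 fold change of the 10 genes was 0.11 with 8 positive. With diet as a covariate it was -0.017 with 4 positive.

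Other measures were also compared between the diets. Immediate early genes such as FOS, JUN and EGR1, which respond within minutes to stress or handling, summed to 178.4 to 303.9 CPM with rapeseed oil (median 193.7), 236.3 to 503.6 with beef tallow (median 336.2) and 243.3 to 406.2 with coconut oil (median 333.7). Of the 12 genes of that list 2 were at 0 in all pigs and 5 were tested, with 0 called by edgeR in any pair of diets. At an unadjusted p below 0.05, 2 of the 5 were higher for group B and 3 for group C, against 8.33% and 6.45% of all genes. DUSP1 of that list, a phosphatase of MAP kinases, was at 1.25 for group B (edgeR adjusted p = 0.240), and edgeR called it without pig B3 (1.54, SE 0.34, edgeR adjusted p = 0.0299). Markers of Kupffer cells and macrophages, 8 genes with none at 0 in all pigs, summed to 613.6 to 1147 CPM with rapeseed oil, 847.7 to 1698 with beef tallow and 613.7 to 886.1 with coconut oil. Of 3 markers that edgeR called for group B, CD163 of macrophages (0.79, edgeR adjusted p = 0.0414) and LYVE1 of sinusoidal endothelium (0.88, edgeR adjusted p = 0.0495) were higher and TTR of hepatocytes (-0.78, edgeR adjusted p = 0.0426) was lower. Over the whole lists, 6 of 7 tested Kupffer cell and macrophage markers (median 0.33), 2 of 4 endothelial markers (median 0.0057) and 1 of 5 hepatocyte markers (median -0.11) had a positive log2 fold change for group B. Without pig B3, 4 of 7 (median 0.08), 2 of 4 (median 0.11) and 0 of 5 (median -0.13) were positive, in the same order. For group C these were 2 of 7 (median -0.12), 2 of 4 (median -0.075) and 1 of 5 (median -0.15). CD163, LYVE1 and TTR were at 0.29, 0.86 and -0.25 for group C, and edgeR with the filter on low counts called none of them. DESeq2 (adjusted p = 0.0216) and edgeR without that filter (adjusted p = 0.034) called LYVE1 there. From group B to group C, 1 of 7 macrophage markers was positive (median -0.49), with 4 lower at an unadjusted p below 0.05. Of endothelial and hepatocyte markers, 1 of 4 and 2 of 5 were positive. DESeq2 called C1QA lower there (-0.80, adjusted p = 0.0292) and TTR higher (0.54, adjusted p = 0.0467). In pig B3 the macrophage marker C1QA was at 978 CPM, against 430.3 to 561.6 CPM in the rest of group B. RGS5, a stellate cell marker, did not pass the filter with all pigs, and DESeq2 called it lower for group B (-2.45, adjusted p = 0.00693). Of the 5 tested stellate cell and fibroblast markers, 1 was positive for group B (median -0.21). The part of these changes in the values of HSPA8, BAG3 and ZFAND2A was not tested.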

How the data were processed

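Liver RNA of 16 pigs was measured with QuantSeq 3′ libraries, 1 per pig. The authors used FLEXBAR 3.5.0 for trimming, TopHat 2.1.1 for alignment against the Sus scrofa 11.1 assembly, and HTSeq-count 0.11.1 with the Ensembl 96 genes for counting. The deposited values are raw counts for 25880 genes, with 5 tallies of reads on no gene that entered neither library sizes nor tests. Whether counting used strand is not given in the sources used here.

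Groups were taken from the sample labels. Each pair of diets was fitted on its own with edgeR 4.0.16 in R 4.3.3 (quasi-likelihood test, TMM, filterByExpr at min.count 10 and min.total.count 15), with Benjamini-Hochberg adjustment over all genes tested. The standard error is the log2 fold change divided by the square root of F. Tried as alternatives were DESeq2 1.42.0, RLE scaling, no filter, 1 fit of all 16 pigs, a covariate (sex for diets, diet for sexes), a replicate block and each pig left out. For the related lists, DESeq2, no filter and the fit without pig B3 were added after seeing the data. On simulated data with 200 changed genes, edgeR recovered 100% of 4-fold changes in each pair of diets, and of 2-fold changes 58.7% (groups R and B, 6372 genes), 69.6% (R and C, 6431 genes) and 54.3% (B and C, 6769 genes). In the same order 7.79%, 7.69% and 3.4% of its calls were false. The simulated counts were drawn with the dispersions that edgeR estimated, so they follow its model and hold no outlying pig such as B3.

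The 10 genes and all lists were chosen with earlier results of these data known. Besides them, the rule names genes of the related lists past the threshold, the gene of smallest p in each chaperone list, HSPA1A, HSPA1B, HSF1, HSPA5, HSPA9, HSP90B1 and HSPD1, and the 5 genes most like BAG3 and HSPA8. Of 81 related chaperone genes listed, 72 were found, 64 cytosolic. Sequences of promoters and proteins were not analysed here. A limit of 3 counts for a gene at 0 reads covers counting error only, and so gives no level for HSF1.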

Additional observations from a re-analysis of the deposited data

Results flagged for a closer look

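Of 30 gene and diet combinations of the 10 genes, 4 held 1 pig with an unusually large gap to its nearest neighbour. Chance gives about 1 in 20. The gap was taken as a share of the range of its group on the log2 scale, so the CPM printed here give other shares. DNAJA1 in pig B3 was at 95.83 CPM against 218.9 to 284.3 CPM in the other pigs of group B (share 0.760). HSP90AB1 in pig C1 was at 1027 CPM against 829.8 to 891.9 CPM in the rest of group C (share 0.661). Pig C4 gave 2 of the 4, with HSPA4 at 187.6 CPM against 107.8 to 131.4 CPM (share 0.642) and HSP90AA1 at 1581 CPM against 1134 to 1281 CPM (share 0.633). With all pigs and the filter on low counts, edgeR called none of these genes in a comparison of diets, and DNAJA1 between groups R and C was called by DESeq2, by edgeR without the filter and without pig C1 or C3.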

How the results depend on the processing

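Of 499 alternative values of the log2 fold changes of the 10 genes, 477 kept their direction and side of the threshold, 11 lost a call, 7 gained one and 4 changed sign, all 4 uncalled. Those were HSPB1 between groups R and C without R2 (0.0358, range with 1 pig left out -0.413 to 0.0358), HSP90AB1 between B and C without B1 (-0.00753, range -0.00753 to 0.228), and HSPA4 between B and C without B3 (0.0403) or C2 (0.0223, range -0.151 to 0.0403). Between groups R and B, 1 to 3 of the 10 genes were called with 1 pig left out, and only HSPA8 was called without R1, R3 or R5. Between groups R and C, DESeq2 and edgeR without a filter each called 4 (HSPA8, BAG3, DNAJA1 and ZFAND2A). The cause was not tested.

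Counts over all genes moved more. Between groups R and B, 70 genes were called, and 188 by DESeq2, 190 without a filter and 9 to 149 with 1 pig left out, the highest without B3. Between R and C, 9 were called, and 93, 82 and 3 to 27. Between B and C, 4 were called, and 53, 22, 4 to 9, and 8 with all 16 pigs in 1 fit. Between the sexes, 5 were called, 11 by DESeq2 and 10 without a filter. Replicate numbers were taken as names only, since the correlation of same-numbered pigs lay between -0.25 and 0.145 and at most 1 of 5 pairs per comparison was over 0.1. Of 5 pigs of the first diet, 1 (R and B), 3 (R and C) and 1 (B and C) correlated best with their own number. With a replicate block 3, 2 and 0 of the 10 genes were called and 35, 8 and 4 of all genes. The planned search for heat shock elements in promoters was not run. ZFAND2A had 8 to 28 reads per pig in group R.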
